A study of Homo sapiens with 12 samples.

Results

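The genes described here are the Wnt ligands, their receptors, their secreted inhibitors and the core genes of β-catenin signalling, read across 4 lines of A549, an established human lung adenocarcinoma cell line. A gene was a member if its symbol was that of a WNT, Frizzled (FZD), Dickkopf (DKK1 to DKK4) or secreted Frizzled-related (SFRP1 to SFRP5) gene, or if it was one of a named set of co-receptors, regulators and transcription factors. The rule took 60 of the 60623 genes in the count table. They fall into 19 ligands, 10 Frizzled receptors, 6 co-receptors or alternative receptors and 10 secreted inhibitors. The others are 5 R-spondin receptors or receptor-removing ligases, 6 genes of β-catenin and its destruction complex (with NKD1 and NKD2 counted here), and 4 TCF/LEF factors.

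Wnt proteins are secreted lipid-modified ligands that bind a Frizzled receptor together with the co-receptor LRP5 or LRP6. When they do, the destruction complex of AXIN and APC stops marking β-catenin for degradation, and β-catenin enters the nucleus and works with TCF/LEF factors on target genes. DKK1 blocks LRP5 and LRP6, the SFRPs bind the ligands themselves, and RNF43 and ZNRF3 remove Frizzleds from the cell surface unless R-spondins and the LGR receptors stop them. Several members (AXIN2, NKD1, NOTUM, LGR5, RNF43, ZNRF3, LEF1, TCF7 and DKK1 among them) are themselves β-catenin targets in many tissues, which makes them a readout of the pathway as well as parts of it.

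The lines were made by infecting A549 cells with a lentivirus and selecting in 200 μg/ml hygromycin for 72 h. The vector, pLV-EF1a-IRES-Hygro, was empty in line V and carried HA-tagged AHR, the aryl hydrocarbon receptor, in the other lines: wild-type (WT), S489A (SA), whose alanine cannot be phosphorylated, or S489D (SD), whose aspartate carries the negative charge of a phosphate. The replaced serine is the site that the kinase PLK1 phosphorylates, and the design asks what the site does to expression. Each construct is represented by 1 line, so the construct and the line that carries it cannot be told apart. PolyA-selected RNA was sequenced from 3 biological replicates per line, 12 libraries in all, with 7844045 to 11765576 expected counts assigned to genes.

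Levels are given as CPM, the expected count scaled to the size of the library. AHR itself was at 69.3 ± 4.51 CPM (SD, n = 3) in the vector line, and WT, SA and SD held 267 ± 28.3, 223 ± 5.88 and 210.4 ± 9.15 CPM, so all 3 AHR lines carried more AHR transcript than V. A readthrough gene overlaps AHR on its strand, and with its counts added the levels were 69.3 ± 4.51, 470.02 ± 16.4, 393 ± 18.9 and 296 ± 8.17 CPM. The AHR lines thus also differed from each other in their mean AHR transcript level, highest in WT and lowest in SD on both counts. For AHR alone, the libraries of SD (202.5 to 220.4 CPM) and SA (219.8 to 230.1 CPM) overlapped. The part of these differences in the comparisons between the AHR lines was not tested. Of 5 epithelial markers, KRT8, KRT18 and CDH1 were high while KRT19 and EPCAM stayed at or below 1.75 CPM in every library. Of 5 alveolar type II markers, the surfactant genes SFTPA1, SFTPB and SFTPC and the lung factor NKX2-1 did not pass 0.382 CPM in any library, and NAPSA alone was measured, at 2.80 to 4.52 CPM. Of the labelled tissue, KRT8, KRT18 and CDH1 were thus present and the alveolar identity genes largely absent. Fibroblast markers COL1A2 and DCN, the T cell marker CD3E and the endothelial marker VWF had 0 counts in all libraries.

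The module was read at very different depths. Of the 60 members, 39 passed the low-count filter in each comparison against V, ROR2 passed only in the comparisons of SD and WT against SA, and 20 passed in none. Among the 20 were 12 of the 19 ligands. WNT2, WNT7A, WNT8A, FZD10, DKK2, DKK4 and SFRP2 had 0 counts in all 12 libraries, which allows a level of up to 0.255 to 0.382 CPM per library (3 counts of its total, counting error only). The other untested members were all sparse. WNT5B, WNT4 and WNT11 summed to 77, 75 and 68 counts over the 12 libraries, the Wnt deacylase NOTUM to 76, WNT3A to 15, WNT8B to 14, the stem cell R-spondin receptor LGR5 to 7, WNT10A to 4, WNT9B, WNT16 and the transcription factor LEF1 to 3 each, and WNT1 and the ligand-binding inhibitor WIF1 to 2 each. Whether the lines differ in these genes was not detectable at this depth.

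Per kilobase of exon, each role was led by a single gene, and the same genes led their roles in CPM. The length used was that of all annotated exons of a gene merged, which can exceed that of the transcript made. The order of genes from different roles therefore depends on it: CTNNB1 was at 245 CPM over 11759 bases, and WNT7B at 276 CPM over 5080. DKK1, the LRP5/6 antagonist, was the highest of all members at 100.01 CPM per kb (mean of 12 libraries, range 80.4 to 142). WNT7B led the ligands at 54.3, LRP5 the co-receptors at 49.1, LGR4 the R-spondin receptors at 43.9, FZD2 the Frizzleds at 26.8, CTNNB1, which encodes β-catenin, its complex at 20.8, and TCF7L2 the TCF/LEF factors at 6.30 CPM per kb. The lead was steep among ligands: next after WNT7B came WNT3 at 4.26 and WNT5A at 2.56, and the other 4 tested ligands lay between 0.341 and 1.04. In V, WNT7B made up 85.4% ± 0.544 of the summed ligand level per kb and DKK1 88.6% ± 0.707 of the summed inhibitor level. Such shares depend on the merged lengths, 2221 bases for DKK1 and 11958 for DKK3, which the SD does not cover.

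**Figure D1:**
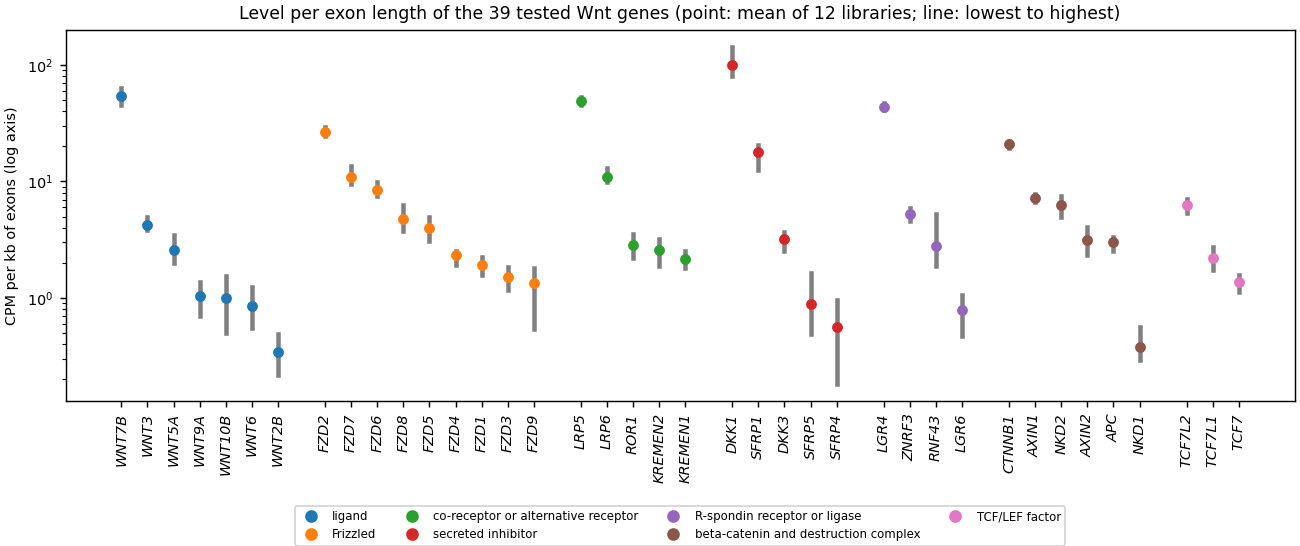
Level of the 39 tested members in CPM per kb of exon length (log axis), grouped by role; each point is the mean of 12 libraries and each grey line runs from the lowest to the highest library. On this scale, DKK1, WNT7B, LRP5 and LGR4 stand above the other members, at 43.9 to 100.01 CPM per kb. The length is that of all annotated exons merged, so the order of genes depends on the annotation.

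Against V, 10 members changed in at least 1 AHR line, at an adjusted p below 0.05 in edgeR's quasi-likelihood test, with Benjamini-Hochberg adjustment over all genes tested. In WT, 2 members rose and 5 fell of 39 tested (17.9%), where 2.31% of all genes tested rose, 2.93% fell and 5.24% changed. In SA, 1 rose and 5 fell (15.4%), beside 3.88%, 3.29% and 7.17% of all genes. In SD, 4 rose and 5 fell (23.1%), beside 2.92%, 2.49% and 5.41% of all genes. The members thus changed at a larger share than the tested genes as a whole, and the shares were not tested against each other. The members were chosen with earlier results of these data known, and the part of that choice in the shares was not tested. The counts include calls lost with a library left out: LRP6 and WNT7B in WT, FZD8 and WNT7B in SA, DKK3 and SFRP4 in SD. The median log2 fold change of the tested members was -0.10, 0.01 and -0.07 in WT, SA and SD, beside 0.0018, -0.0024 and 0.0030 over all genes tested. The 3 comparisons share the V libraries and are not independent of each other.

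**Figure D2:**
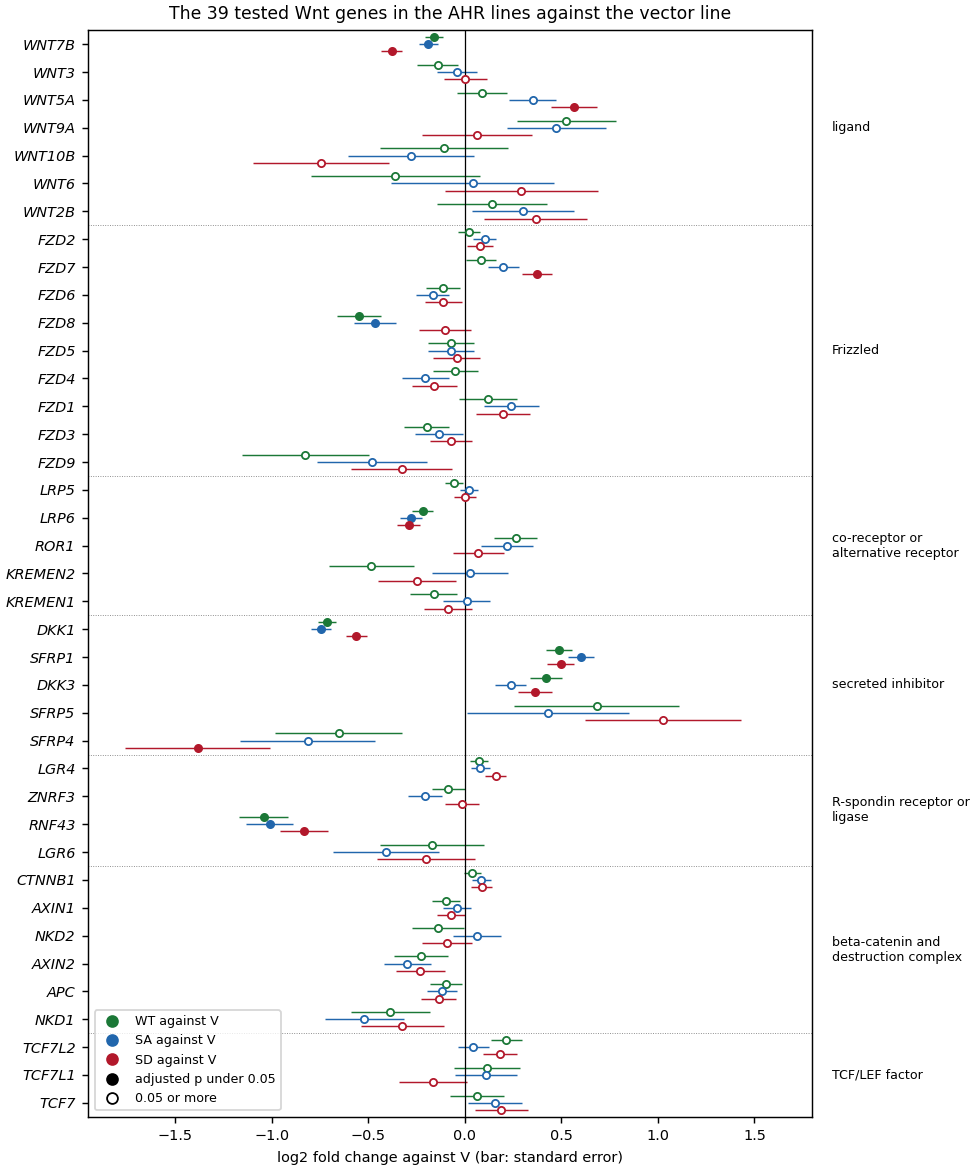
Log2 fold change (point) and standard error (bar) of the 39 tested members in WT, SA and SD against V, grouped by role; filled points have an adjusted p below 0.05. DKK1 and RNF43 lie farthest to the left among the filled points of WT and SA, and SFRP1 farthest to the right.

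DKK1, the member with the highest level per kb, fell in all 3 AHR lines. It lies on chromosome 10 (52314281 to 52318042, GRCh38, plus strand). The 250 bases before its RefSeq start (GRCh38.p14, chr10:52314031-52314280, plus strand) are shown because they hold the only matches among the members with a window to CTTTGA, the core that TCF/LEF factors recognise, searched on both strands. The 2 matches, in capitals, begin 149 and 95 bases before the start.
DKK1: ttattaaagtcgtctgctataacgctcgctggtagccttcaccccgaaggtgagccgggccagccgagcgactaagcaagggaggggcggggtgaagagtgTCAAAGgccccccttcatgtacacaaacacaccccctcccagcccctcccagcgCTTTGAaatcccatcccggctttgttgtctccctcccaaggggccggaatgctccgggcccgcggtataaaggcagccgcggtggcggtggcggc
Across RefSeq windows of 300 bases (250 before to 50 after a start), 12.9% of 34943 windows held CTTTGA or its reverse complement, and 1 of the 50 windows that belong to 40 of the members did. A match is a string of letters and not a measured site.

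The DKK1 level was 316, 293 and 315 CPM in the 3 V libraries, 187, 195 and 181 in WT, 191, 182 and 179 in SA, and 208, 218 and 199.5 in SD. Every AHR-line library lay below every V library, and the SD libraries lay above those of WT and SA. The log2 fold change against V was -0.71 ± 0.05 (SE) in WT (adjusted p = 1.71e-11), -0.75 ± 0.05 in SA (4.08e-11) and -0.56 ± 0.06 in SD (1.19e-07), with 3 libraries per line. The DKK1 share of the summed inhibitor level per kb went from 88.6% in V to 77.8% ± 0.797 in WT, 76.7% ± 0.578 in SA and 79.6% ± 0.448 in SD.

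SFRP1, which binds Wnt ligands in the extracellular space, moved the other way. Its level was 59.5, 62.5 and 69.1 CPM in V, 88.7, 90.5 and 88.9 in WT, 96.7, 96.4 and 96.9 in SA, and 87.4, 94.4 and 87.5 in SD. The V libraries and the AHR-line libraries did not overlap. SFRP1 rose by 0.49 ± 0.07 (log2, SE) in WT (adjusted p = 1.00e-05), 0.60 ± 0.07 in SA (5.58e-07) and 0.50 ± 0.07 in SD (3.06e-05). Its share of the inhibitor level per kb was 8.60% ± 0.629 in V and 16.1% to 18.9% in the AHR lines, still well under that of DKK1.

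DKK3, a divergent Dickkopf that does not act on LRP5/6 as DKK1 does, rose in WT and SD. It was at 33.0, 30.4 and 32.1 CPM in V, 42.2, 42.1 and 43.7 in WT, 37.6, 37.9 and 37.1 in SA, and 38.9, 39.8 and 43.8 in SD. All AHR-line libraries were above those of V, with SA in between. Relative to V, the log2 change was 0.42 ± 0.08 in WT (adjusted p = 0.00140), 0.24 ± 0.08 in SA (0.0828) and 0.36 ± 0.09 in SD (0.0106). The SD call was lost without V replicate 2 (0.0665) or SD replicate 3 (0.0673).

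SFRP4, another ligand-binding inhibitor, fell in SD from a low level. It was at 2.68, 3.40 and 3.16 CPM in V, 1.91, 1.85 and 2.12 in WT, 2.61, 1.45 and 1.24 in SA, and 1.30, 0.644 and 1.52 in SD, that is 6 to 32 counts per library. The log2 fold change was -0.65 ± 0.33 in WT (adjusted p = 0.307), -0.81 ± 0.35 in SA (0.181) and -1.38 ± 0.38 in SD (0.0273). The SD call rests on few counts and was lost without any of V replicates 1, 2 or 3 or SD replicates 1 or 2, with adjusted p between 0.0542 and 0.158. The remaining tested inhibitor, SFRP5, did not pass the test in any comparison, at 0.927 to 3.11 CPM. Of the 5 tested inhibitors, 2 rose and 1 fell in WT, 1 rose and 1 fell in SA, and 2 rose and 2 fell in SD. That is 60%, 40% and 80% of 5 genes, beside 5.24%, 7.17% and 5.41% of all genes tested. The SD counts include the DKK3 and SFRP4 calls that were lost with a library left out.

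**Figure D3:**
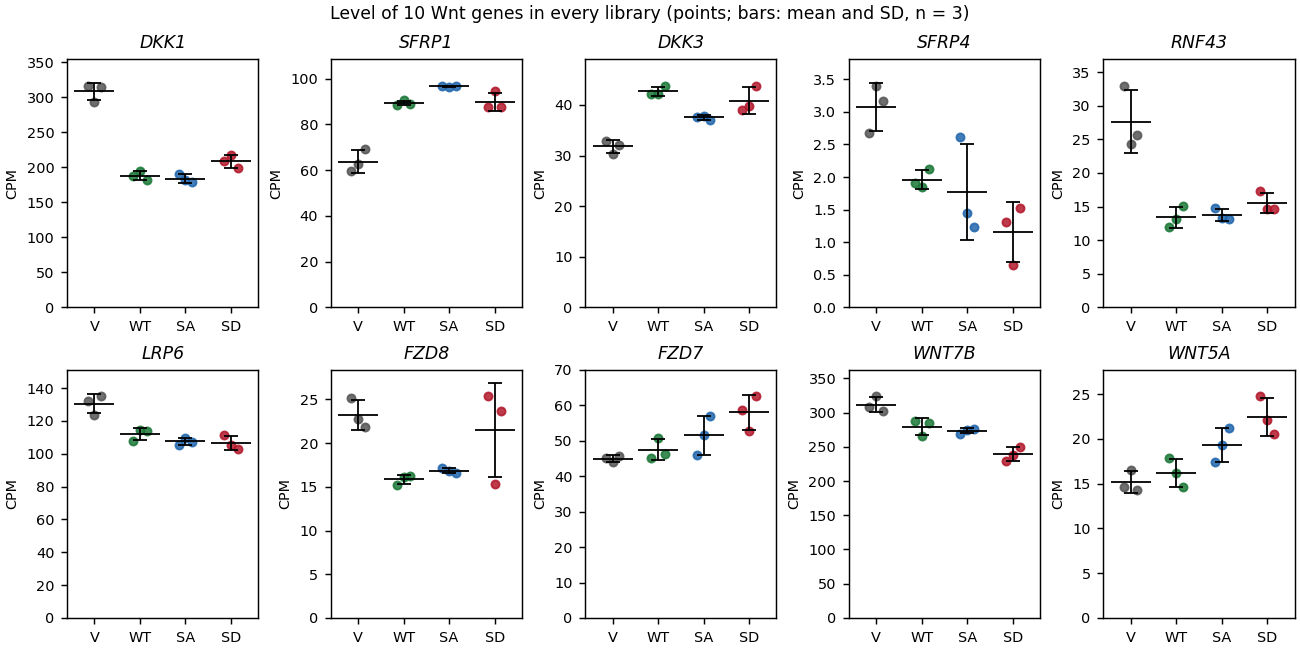
Level in CPM (linear axes from 0) of the 10 members that changed in at least 1 comparison; each point is 1 library, and bars give the mean and SD of the 3 libraries of a line. DKK1 drops from 293 or more in V to 218 or less in the AHR lines, SFRP1 rises, and WNT7B and WNT5A take their most extreme level in SD.

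RNF43, the ligase that clears Frizzleds from the membrane and that β-catenin itself induces in many epithelia, fell in all 3 AHR lines. It lies on chromosome 17 (58352500 to 58417595, GRCh38, minus strand). The 250 bases before 1 of its RefSeq starts (chr17:58417535-58417784, minus strand), and those before the start of FZD8 (chr10:35642297-35642546, minus strand), are shown because both genes fell in WT and SA and their windows hold GCGTG, the core that AHR binds with its partner ARNT. In capitals, it begins 71 bases before the start of RNF43 and 97 before that of FZD8.
RNF43: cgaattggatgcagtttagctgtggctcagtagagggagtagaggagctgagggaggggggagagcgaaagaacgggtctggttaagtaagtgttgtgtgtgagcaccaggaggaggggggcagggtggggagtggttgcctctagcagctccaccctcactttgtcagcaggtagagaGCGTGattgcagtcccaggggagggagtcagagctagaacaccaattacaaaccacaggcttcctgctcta
FZD8: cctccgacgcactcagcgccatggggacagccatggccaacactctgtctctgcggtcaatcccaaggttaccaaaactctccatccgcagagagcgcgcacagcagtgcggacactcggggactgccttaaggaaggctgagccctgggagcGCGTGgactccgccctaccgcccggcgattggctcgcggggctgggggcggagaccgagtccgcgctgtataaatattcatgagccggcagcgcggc
GCGTG or its reverse complement is common: 36.5% of all windows and 19 of the 50 member windows (38.0%) held it. Members with windows therefore carried it about as often as genes in general. A window of WNT5A, which rose in SD, also held it. The windows of DKK1 and SFRP4, which fell, and the other window of RNF43 did not. For the other members that changed, LRP6, WNT7B, SFRP1, DKK3 and FZD7, no window is described here, so this reading does not cover them.

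The RNF43 level was 33.0, 24.2 and 25.7 CPM in V, 11.96, 13.2 and 15.1 in WT, 14.8, 13.3 and 13.2 in SA, and 17.2, 14.6 and 14.6 in SD. No AHR-line library reached the lowest V library. RNF43 had a log2 fold change of -1.04 ± 0.13 in WT (adjusted p = 1.71e-06), -1.01 ± 0.12 in SA (2.02e-06) and -0.83 ± 0.12 in SD (6.28e-05), which left RNF43 at 48.5%, 49.7% and 56.1% of its V level. A readthrough gene overlaps RNF43 on its strand and takes part of its reads. With the counts of both genes summed, an alternative chosen after seeing the data, the call was kept in all 3 comparisons. SFRP1 and FZD8 also overlap other annotated genes on their strand, and how reads were divided there was not tested.

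The other tested members of its group did not pass the test in any comparison. ZNRF3, the paralogous ligase, was at 38.4 ± 3.35 CPM in V and 33.3 to 38.0 in the AHR lines (log2 fold change -0.09 in WT, -0.21 in SA and -0.02 in SD, adjusted p = 0.688, 0.171 and 0.955). LGR4, the main R-spondin receptor of these cells, was at 264 ± 6.05 CPM in V and 278 to 295 in the AHR lines, and its largest difference, 0.16 ± 0.05 in SD, did not pass the test (adjusted p = 0.0867). LGR6 was low, at 2.21 to 4.96 CPM, and did not pass either.

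LRP6, the co-receptor that DKK1 blocks, fell slightly in each AHR line. It was at 132, 124 and 135 CPM in V, 108, 114 and 114 in WT, 106, 109.8 and 107 in SA, and 111, 105 and 103 in SD. The log2 fold change was -0.22 ± 0.05 in WT (adjusted p = 0.0141), -0.28 ± 0.06 in SA (0.00209) and -0.29 ± 0.06 in SD (0.00325). The WT call was lost without V replicate 1 (0.0847), V replicate 3 (0.0808) or WT replicate 1 (0.0733). LRP5, the other co-receptor of the canonical pathway, was at 305 ± 3.19, 294 ± 12.3, 310.0 ± 14.1 and 305 ± 19.8 CPM in V, WT, SA and SD and did not pass the test. The DKK1 co-receptors KREMEN1 and KREMEN2 and the alternative Wnt receptor ROR1 did not pass it either, with log2 fold changes against V between -0.48 and 0.26.

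Among the Frizzleds, FZD8 and FZD7 changed. FZD8 was at 25.1, 22.7 and 21.8 CPM in V, 15.3, 16.1 and 16.3 in WT, 17.2, 16.8 and 16.5 in SA, and 25.4, 15.4 and 23.7 in SD. WT and SA lay below V with little spread, whereas SD replicate 2 sat at the WT level and the other SD libraries at the V level. FZD8 fell by 0.55 ± 0.11 on the log2 scale in WT (adjusted p = 0.00241) and by 0.46 ± 0.11 in SA (0.00724, and 0.0679 without V replicate 1). In SD the difference was -0.10 ± 0.13 (0.766), and 0.08 without SD replicate 2.

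FZD7, a Frizzled widely expressed in epithelial tumours, rose in SD. Its level was 45.0, 43.9 and 45.8 CPM in V, 45.2, 50.8 and 46.4 in WT, 45.9, 51.7 and 57.0 in SA, and 58.8, 52.8 and 62.5 in SD. The SD libraries were above all V and WT libraries and overlapped those of SA. FZD7 had a log2 fold change of 0.08 ± 0.08 in WT (adjusted p = 0.653), 0.20 ± 0.08 in SA (0.151) and 0.37 ± 0.08 in SD (0.00356). With a library left out, the SA difference passed in 1 of 6 fits (0.0328 without SA replicate 1), and its adjusted p otherwise reached 0.543. FZD2, the leading Frizzled, was at 97.7 ± 2.62 CPM in V and 99.3 to 105 in the AHR lines, without passing the test. The other 6 tested Frizzleds, FZD1, FZD3, FZD4, FZD5, FZD6 and FZD9, did not pass it in any comparison.

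WNT7B, the dominant ligand and a canonical Wnt of lung epithelium, fell in each AHR line. It was at 307, 324 and 303 CPM in V, 287, 265 and 285 in WT, 269, 274 and 276 in SA, and 229, 238 and 250.02 in SD. All AHR-line libraries lay below V, and all SD libraries below WT and SA. WNT7B had a log2 fold change of -0.16 ± 0.05 in WT (adjusted p = 0.0419), -0.19 ± 0.05 in SA (0.0140) and -0.38 ± 0.05 in SD (3.77e-05). The SD call was kept without any 1 library. The WT call was lost without V replicate 1 or 2 or any 1 of the WT replicates (0.0515 to 0.219). It was also lost when all 12 libraries entered 1 fit. The SA call was lost without V replicate 1 (0.0560), V replicate 2 (0.0805) or SA replicate 2 (0.0619).

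WNT5A, the ligand best known for β-catenin-independent signalling through ROR receptors, rose in SD. Its level was 14.6, 16.6 and 14.3 CPM in V, 17.8, 16.2 and 14.6 in WT, 17.5, 19.3 and 21.2 in SA, and 24.8, 22.1 and 20.5 in SD. WT overlapped V, while SA and SD lay above it. The log2 fold change was 0.09 ± 0.13 in WT (adjusted p = 0.794), 0.35 ± 0.12 in SA (0.0817) and 0.57 ± 0.12 in SD (0.00380). With a library left out, the SA difference passed in 1 of 6 fits (0.0451 without SA replicate 1), and its adjusted p otherwise reached 0.312. Of the summed ligand level per kb, WNT7B held 85.4%, 84.4%, 83.0% and 80.8% ± 0.918 across V, WT, SA and SD, and WNT5A 2.96%, 3.48%, 4.17% and 5.41% ± 0.682. The canonical ligand WNT3 was at 23.6 ± 1.47 CPM in V and 21.5 to 23.7 in the AHR lines, and the sparse ligands WNT2B, WNT6, WNT9A and WNT10B, at 0.957 to 6.01 CPM, did not pass the test.

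The tested members that carry the signal inside the cell did not pass the test in any comparison. CTNNB1 was at 236 ± 8.18, 242 ± 2.40, 250.3 ± 3.52 and 250.1 ± 10.6 CPM across V, WT, SA and SD (log2 fold change 0.04, 0.09 and 0.09; adjusted p = 0.738, 0.345 and 0.454). The scaffolds of the destruction complex did not pass it either, with APC at 43.6 ± 1.75 CPM in V and 39.8 to 40.8 in the AHR lines and AXIN1 at 57.0 ± 1.52 and 53.2 to 55.3. TCF7L2, TCF7L1 and TCF7 had log2 fold changes against V between -0.17 and 0.22.

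The remaining feedback genes were set beside RNF43 and DKK1. AXIN2, a widely used transcriptional target of β-catenin, was at 21.2, 17.96 and 16.9 CPM in V, 18.8, 17.1 and 12.04 in WT, 14.5, 15.2 and 15.9 in SA, and 17.8, 14.7 and 15.2 in SD. Against V, AXIN2 had log2 fold changes of -0.23 ± 0.14, -0.30 ± 0.12 and -0.23 ± 0.13 (adjusted p = 0.428, 0.162 and 0.379), which did not pass the test; the WT and SD libraries overlapped those of V and the SA libraries lay below them. NKD1, an inhibitor of Dishevelled, had -0.39 ± 0.21, -0.52 ± 0.21 and -0.32 ± 0.22 (adjusted p = 0.342, 0.138 and 0.489) at 5.11 to 9.69 CPM. Its relative NKD2 had -0.14, 0.06 and -0.09, and TCF7 0.06, 0.16 and 0.19. Beside DKK1, RNF43 was thus the feedback gene that changed; AXIN2, NKD1, NKD2, ZNRF3 and TCF7 did not pass the test, and NOTUM, LGR5 and LEF1 were too sparse to test.

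Between the AHR lines, which differ at that serine, no member passed the test. In SD against WT the count was 0 of 39, where 0.708% of all genes tested passed, and 5 members had an unadjusted p below 0.05. DESeq2, run on the same libraries, called 1. In SD against SA it was 0 of 40 by both tools (0.22% of all genes, 4 members at an unadjusted p below 0.05), and in WT against SA likewise 0 of 40 by both (0.0803% of all genes, 4 members unadjusted). Few genes of any kind differed between these lines, so the absence of calls among the members is close to the background.

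The smallest adjusted p-values of these comparisons belonged to 2 ligands in SD against WT. WNT7B differed by -0.22 ± 0.06 (log2, SE; adjusted p = 0.0614), and WNT5A by 0.47 ± 0.12 (0.0705). The SD and WT libraries did not overlap for either gene. Both fell on the other side of the threshold when genes with low counts were kept (0.0172 and 0.0243) and when all 12 libraries entered 1 fit (0.0258 and 0.0497). With DESeq2, WNT7B did so (0.0242) and WNT5A did not. With a library left out, each gene passed in 1 of 6 fits, that without SD replicate 3 (0.0327 and 0.0461). Their adjusted p otherwise reached 0.274 and 0.315. FZD8 was 0.44 ± 0.15 higher in SD than in WT (adjusted p = 0.215), and 0.62 higher without SD replicate 2 (0.0250), the library at the WT level. That was the 1 of 6 fits with a library left out that passed, and the FZD8 adjusted p otherwise reached 0.554. Against SA, the SD line differed by -0.19 ± 0.06 for WNT7B (0.227) and by 0.21 ± 0.11 for WNT5A (0.630).

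DKK1 and RNF43 differed between the AHR lines by values that did not pass the test. DKK1 was 0.15 ± 0.06 higher in SD than in WT (adjusted p = 0.286) and 0.18 ± 0.06 higher than in SA (0.324), with all SD libraries above those of both lines. RNF43 was 0.21 ± 0.14 and 0.17 ± 0.13 higher (0.629 and 0.748). SFRP1 in SD was 0.01 ± 0.06 above WT and 0.11 ± 0.06 below SA, neither past the test. WT and SA differed by 0.03 ± 0.05 for both DKK1 and WNT7B.

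**Figure D4:**
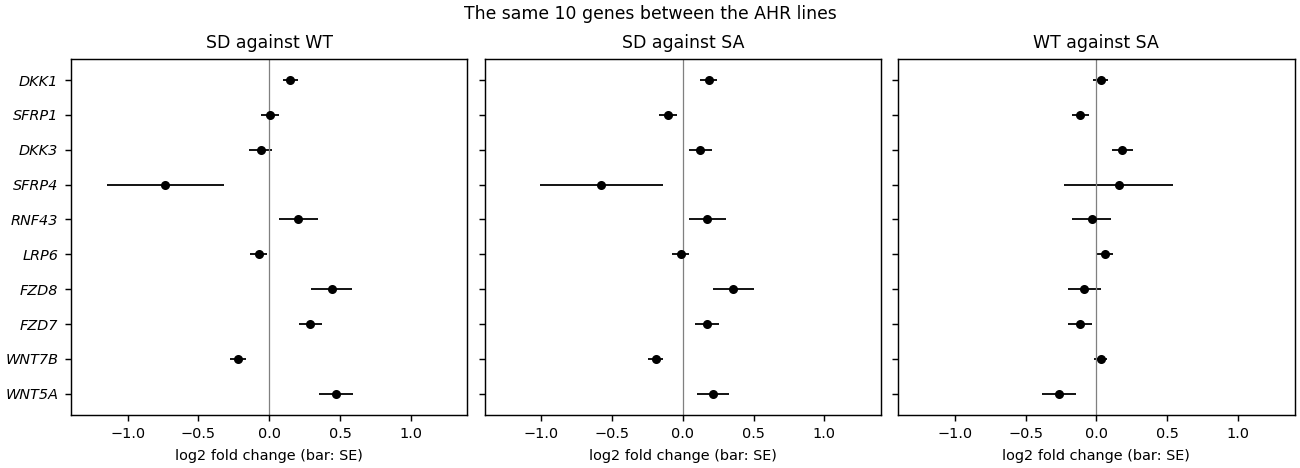
Log2 fold change (point) and standard error (bar) of the same 10 members between the AHR lines, none with an adjusted p below 0.05. In SD against WT, WNT5A and FZD8 lie at 0.47 and 0.44 and WNT7B at -0.22; in WT against SA, all 10 genes lie between -0.26 and 0.18, SFRP4 with the widest standard error.

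Other genes of the pathway were read from 4 lists. Of 22 extracellular modulators and secretion genes, 10 were tested, of which 1 fell in WT, 2 rose and 3 fell in SA, and 2 rose and 1 fell in SD. That is 1, 5 and 3 of 10 tested, beside 5.24%, 7.17% and 5.41% of all genes. RSPO3, an R-spondin that stabilises Frizzleds by way of LGR4 and RNF43, was at 64.9 ± 3.11, 56.3 ± 5.95, 52.9 ± 2.86 and 46.0 ± 1.06 CPM across V, WT, SA and SD. It fell in SA (log2 fold change -0.29, adjusted p = 0.0102) and SD (-0.49, 6.60e-05). PORCN, the enzyme that attaches the lipid to Wnt ligands, rose by 0.32 in SA (0.0394) and 0.39 in SD (0.0365), and TPBG, a Wnt-inhibitory membrane glycoprotein, by 0.27 (0.0123) and 0.33 (0.00874). The sulfatase SULF2, which frees Wnt from heparan sulfate, fell by 0.32 in WT (0.0110) and 0.36 in SA (0.00560), and the glypican GPC6 by 0.35 in SA (0.0466). Values that narrowly missed the threshold were -0.38 for GPC6 (adjusted p = 0.0561) and 0.20 for TPBG (0.0632), both in WT.

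Of 40 cytoplasmic and nuclear machinery genes, 38 were tested, of which 2 fell in WT, 2 in SA and 1 in SD (5.26%, 5.26% and 2.63%, beside 5.24%, 7.17% and 5.41% of all genes). JUP, encoding the β-catenin relative γ-catenin, which also sits in desmosomes, fell from 158 ± 3.43 CPM in V to 96.2 ± 8.79 in WT, 106 ± 8.67 in SA and 101 ± 8.83 in SD (log2 fold change -0.72, -0.58 and -0.64; adjusted p = 1.17e-09, 1.34e-07 and 1.05e-07). The co-repressor TLE2 fell by 0.66 in WT (0.0279) and 0.72 in SA (0.00773), and differed by -0.52 in SD (0.0590). Of 24 planar polarity and non-canonical genes, 22 were tested, and PRICKLE2, a cytoplasmic planar polarity protein, was the gene that changed, 1 of 22 (4.55%) in each comparison against V, which is under the share of all genes. It fell from 36.9 ± 0.681 CPM in V to 22.5 ± 0.758, 24.2 ± 0.684 and 25.4 ± 1.96 (-0.71, -0.61 and -0.54; adjusted p = 3.32e-06, 2.41e-05 and 0.000395).

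Of 16 widely used β-catenin targets outside the membership, 9 were tested in WT and 10 in SA and SD, and in each comparison with V 2 rose and 1 fell (33.3%, 30.0% and 30.0%, beside 5.24%, 7.17% and 5.41% of all genes). CD44, a hyaluronan receptor, was at 429 ± 9.62 CPM in V and 521 to 553 in the AHR lines (log2 fold change 0.28, 0.30 and 0.37; adjusted p = 2.95e-05, 6.90e-05 and 2.27e-05). FOSL1, an AP-1 subunit, rose by 0.82, 0.79 and 0.42 (4.61e-07, 7.67e-07 and 0.00967), and the matrix protease MMP7 fell by 0.67, 0.68 and 0.89 (0.0379, 0.0179 and 0.00380). The targets thus moved in both directions. FOSL1 also fell in SD relative to WT (-0.41 ± 0.09, adjusted p = 0.0231), the only gene of the 4 lists to pass in a comparison between AHR lines, and no gene did without any 1 of WT replicates 1, 2 or 3 or SD replicates 1 or 2. Over the 4 lists, the number changed went from 11 to 7 in SA without SA replicate 2 and from 8 to 5 in SD without V replicate 3.

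The epithelial markers that were high also fell. KRT8 fell from 3274 ± 54.2 CPM in V to 2608 ± 13.3, 2571 ± 58.1 and 2444 ± 75.2 across WT, SA and SD, and CDH1, which encodes the E-cadherin that holds β-catenin at the membrane, from 170 ± 9.56 to 112 ± 4.25, 112 ± 8.51 and 126 ± 8.27. All 3 epithelial markers that were high, KRT8, KRT18 and CDH1, fell in each AHR line, with log2 fold changes between -0.60 and -0.33. Of 5 fibroblast markers, COL1A1 alone was above 1 CPM; the summed level of the list was 10.2 to 13.4 CPM in V and 5.60 to 9.37 in the AHR lines, and COL1A1 fell in WT (log2 fold change -0.79, adjusted p = 0.00649) and SA (-0.60, 0.0278). Of 3 leukocyte markers, PTPRC and CD3E were at or near 0 and the lysosomal gene CD68 rose in SA (0.36, 0.0320), and the summed endothelial list stayed at or below 0.316 CPM. The part of these markers in the Wnt results was not tested, and in bulk RNA fewer cells of a kind and less RNA per cell cannot be told apart.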

How the data were processed

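The authors trimmed reads with Trimmomatic 0.39 and mapped them with RSEM to GRCh38 transcripts; the annotation release and strand setting are not given in the sources used here. They deposited RSEM expected counts per gene and library, neither normalized nor filtered (3.24% to 3.61% of values were not whole), which were rounded here. A second deposited table holds the authors' own log2 fold changes, p-values and q-values and was not used. Each pair of lines was tested on its own 6 libraries with edgeR 4.0.16 (filterByExpr with a minimum count of 10 and a minimum total of 15, TMM scaling, quasi-likelihood F test, two-sided); SE is the log2 fold change over the square root of F. Levels are TMM-scaled CPM over all 12 libraries, divided where stated by GENCODE 44 exon length (all annotated exons of the gene merged). The limits given for genes with 0 counts cover counting error only, whereas SD and SE include the spread between libraries. Precision is set by depth (7844045 to 11765576 counts) and 3 libraries per line; no pair agreed within sampling noise. The labels call replicates biological but do not say that cultures were separate, so p-values measure the spread between these libraries. The members, the lists and the naming rule were chosen with earlier results of these data known. Named were the members called in any comparison, the feedback genes, CTNNB1, APC, each role's leading member, and up to 5 called genes per list. Alternatives were DESeq2 1.42.0, its size factors, no low-count filter, 1 fit of all libraries, a replicate block and leaving out each library.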

Additional observations from a re-analysis of the deposited data

How the results depend on the processing

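The 10 members that changed were followed through all alternatives in each comparison. Of 22 calls, 16 were kept under every alternative and none changed direction. The values that crossed 0 were differences that had not passed the test, and they did so with a library left out. Over those alternatives the log2 fold change of FZD8 in SD against V ran from -0.23 to 0.081 (without SD replicate 2), of LRP6 in SD against SA from -0.050 to 0.011, of RNF43 in WT against SA from -0.12 to 0.034, of SFRP1 in SD against WT from -0.033 to 0.024 and of SFRP4 in WT against SA from -0.039 to 0.53. The cause was not tested.

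The number of members that changed in SD against WT, 0 as reported, was 2 with no filter on low counts, 1 with DESeq2, 2 with all 12 libraries in one fit, and 0 to 2 with a library left out. For the other pathway genes, the numbers with a library left out ranged from 7 to 10 in SA against V, 5 to 8 in SD against V and 0 to 1 in SD against WT. Between SD and SA that number, 0 as reported, was 1 with no filter and 1 with all libraries in one fit.

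Replicate numbers are shared between lines, but the correlations of same-numbered libraries were low (-0.0375 to 0.106 over 18 pairs) and do not establish that the numbers pair the libraries. In the comparisons of SD with WT, SD with SA and WT with SA, each same-number correlation was slightly above 0, at 0.0171 to 0.0549. The correlations are of deviations from each line's mean. Those between different numbers are therefore largely set by the same-number ones and add nothing further. With the replicate block, 2 members changed in SD against WT (WNT7B, adjusted p = 0.0113, and WNT5A, 0.0294) and 1 when SD was set against SA (WNT7B, 0.0240), other pathway genes numbered 2 and 1, and in WT against V the calls of LRP6 (0.0503) and WNT7B (0.127) were lost.

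SFRP4, at 6 to 32 counts per library, and the untested members are limited by depth.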
